A study of Arabidopsis thaliana with 12 samples.

Results

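Shoots of the Arabidopsis thaliana mutant sid2-1 were compared with shoots of the wild type Col-0 after 3 weeks at 4 °C. The comparison takes the 6 arrays whose titles name 3 weeks of cold, 3 for sid2-1 and 3 for the wild type, out of 12 arrays in all. The other 6 arrays hold both genotypes at 22 °C, and they enter as a setting for each gene and as a source of the spread between replicates. All plants were raised in soil for about 23 d at 22 °C with 12 h of light a day. Plants of the cold groups then spent 3 weeks at 4 °C with the same day length, and the treatment protocol places the harvest 4 h after lights on. Each array holds total RNA of the entire aerial part, labelled as 1 of 3 biological replicates. The labels give no number of plants per replicate, and sid2-1 is a single mutant allele. Every group carries the Col-0 background, as far as the labels say. When the warm plants were harvested is not settled, since one protocol text stands for all samples, and the titles of the warm wild-type arrays end in a mark of unknown meaning. Values at 4 °C set beside values at 22 °C below hold those limits as well as the greater age of the cold plants.

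Salicylic acid is a phenolic hormone of plants that acts in defence against pathogens, in systemic resistance and in the control of leaf growth. In Arabidopsis most of the salicylic acid made under stress comes from chorismate through isochorismate synthase in the plastid, the enzyme that the SID2 locus encodes. The hormone is read by NPR1-type receptors, which act with transcription factors in the nucleus on defence genes. Shoots kept at chilling temperatures for weeks are known to accumulate salicylic acid, and the separate CBF pathway controls many of the genes of cold acclimation.

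The values were log2 signals that the authors made with GCRMA, where 1 unit is a doubling. Of 22746 probe sets tested, 13436 match 1 gene in the gene table used here, and genes are named by its symbols or by their locus. A gene is called measured below only where it has such a named probe set. Another 8730 probe sets were tested but have no gene here, so a gene not counted as measured may still be on the array. No named probe set measures the gene mutated in sid2-1, so the genotype labels were not checked against it. Array medians lay between 4.39 and 4.47 and replicates correlated across probe sets at 0.978 to 0.990. As a check of the tissue, the antenna protein gene LHCB4.2 read 12.49, 12.23 and 12.94 in sid2-1 at 4 °C and 12.38, 12.02 and 12.91 in the wild type at 4 °C. The 5 measured pollen and root markers differed between the genotypes by -0.41 to 0.01, and 3 of them had a mean under 3 over all arrays.

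At 4 °C the probe sets that passed the test were nearly all lower in sid2-1. With limma over all 12 arrays, 137 probe sets fell in sid2-1 at an adjusted p under 0.05, which is 0.602% of those tested, and 3 rose, which is 0.0132%, or 140 and 0.615% in both directions. Of the 137 probe sets, 63 match 1 gene, 2 match several and 72 have no gene here. Those with no gene here are counted but not described, and their log2 differences reached -6.50. The 63 named genes, 0.469% of the named probe sets, include calcium-binding proteins, TIR-domain proteins, receptor-like kinases, proteases and a chitinase. Their sid2-1 values were all below all wild-type values at 4 °C, which held for 6.09% of all probe sets, and 52 of the 63 were at least 2-fold lower. The genes were called on these same values, so the lack of overlap largely follows from the call and is no separate result. The median level of the 137 probe sets was 4.15 in sid2-1 and 7.05 in the wild type at 4 °C, against 4.21 in sid2-1 and 4.48 in the wild type at 22 °C. The gap between the genotypes at 4 °C also follows in part from the call. In whole shoots, fewer cells of a type and less RNA per cell cannot be told apart.

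The number of calls depended on how the spread was estimated. The fit pools the spread of all 4 groups, and in the 137 probe sets the median SD was 0.214 in sid2-1 and 0.501 in the wild type at 4 °C, against 0.167 in sid2-1 and 0.241 in the wild type at 22 °C. Fitted on the 6 cold arrays alone, limma called 0 probe sets, with a smallest adjusted p of 0.116, while 1504 (6.61%) had an unadjusted p under 0.05. Of these 946 (4.16%) were lower, among them all of the 137, and 558 (2.45%) were higher. In those 6 arrays without the probe sets of mean 4 or less, it called 69, of which 68 were lower. With the replicate number as a block within each temperature, 27 probe sets were called, of which 24 were lower, and 15 of the 137 were among them. Without sid2-1 replicate 1 at 4 °C the count was 84, without sid2-1 replicate 3 at 22 °C it was 86, and without wild-type replicate 3 at 4 °C it was 281. Lower calls made up 97.9% of the 140, but 77.4%, 76.6% and 69.2% of the calls without replicate 1, 2 or 3 of sid2-1 at 4 °C, and at an unadjusted p under 0.05, which 9.83% of probe sets had, 1259 were lower and 977 higher. All 137 stayed below 0 in each of these fits that held them. Their values did not overlap at 4 °C, so this follows from the call and is no separate result. Of the 63 named genes, 43 kept their call with values under 3 set to 3, and 28 kept it whichever single array was left out. Setting values under 3 to 3 also alters the fit of other probe sets, so a call lost there need not mean that the gene had low values. CHI, RING1, AT5G52750, AT2G34250, BGLU25 and AT5G24210 lost their call with their difference unchanged. Wild-type replicate 2 was the highest cold wild-type array in 115 of the 137 and replicate 3 the lowest in 97.

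**Figure D1:**
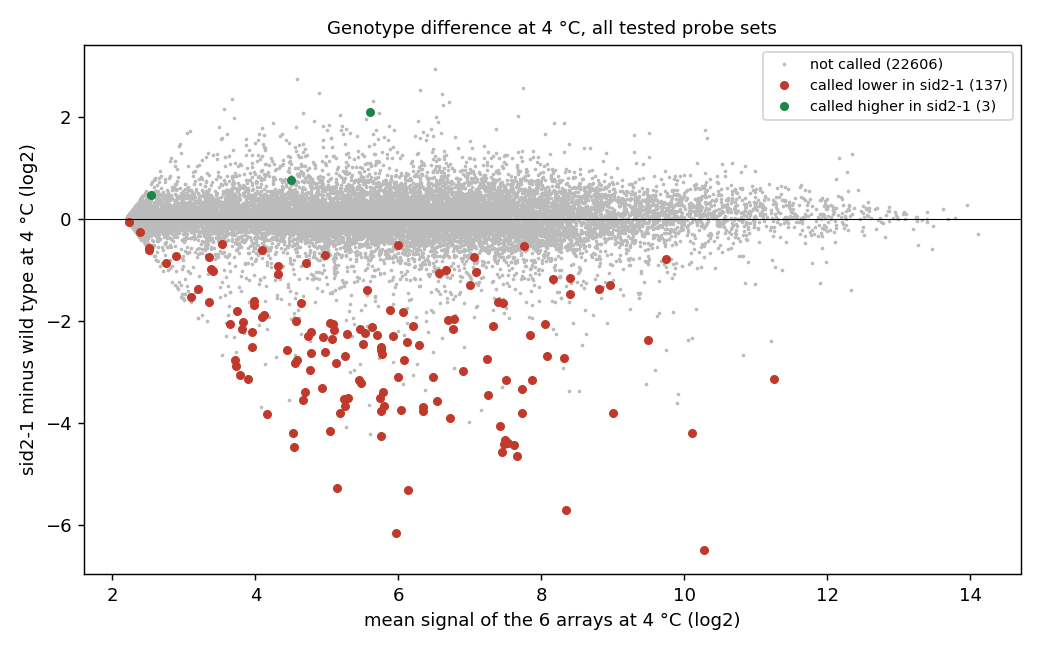
Difference between sid2-1 and the wild type at 4 °C (log2, y axis) against the mean signal of the 6 cold arrays (log2, x axis), 1 point for each of 22746 probe sets. The 137 called probe sets that were lower in sid2-1 lie below 0 over most of the signal range, and the 3 that were higher lie above it.

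The 63 genes are described by role groups drawn up after the calls were seen, with 30 genes in no group. For the receptor-like kinases, the hydrolases and inhibitor, the phenolic and glycoside enzymes and the protein handling genes, the measured members were not counted. Their numbers of calls thus have no share to set beside the 0.469% of named probe sets. Genes put under calcium signalling, which join EF-hand, C2-domain and calmodulin-binding proteins, had 7 members whose differences ran from -4.20 to -1.16 with a median of -3.39. AT3G01830, an EF-hand calcium-binding protein of the calmodulin-like kind, read 2.99, 3.01 and 2.99 in sid2-1 at 4 °C, against 6.75, 6.30 and 6.12 in the wild type at 4 °C. The sid2-1 arrays stood at one level, as did the warm arrays of both genotypes, which lay between 2.88 and 3.50. The fall was 10.5-fold (log2 difference -3.39, SE 0.17, limma adjusted p = 0.000444), and it kept its call with the replicate block (adjusted p = 0.0288). AT5G39670, a second EF-hand protein, read 4.49, 4.79 and 4.97 in sid2-1 and 7.91, 8.56 and 8.51 in the wild type at 4 °C. It fell 11.9-fold (log2 difference -3.58, SE 0.27, limma adjusted p = 0.00125; with the block, 0.0472). AT3G47480, also an EF-hand protein, read 2.89, 5.18 and 3.79 in sid2-1 and 7.42, 8.43 and 7.06 in the wild type. Its sid2-1 arrays were spread over more than 2 log2 units, and its call was lost with the block (log2 difference -3.68, SE 0.63, limma adjusted p = 0.0491; with the block, 0.105). The difference was -4.30 without sid2-1 replicate 2 at 4 °C, and the call was lost with values under 3 set to 3 (adjusted p = 0.0622).

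The other calcium-related members were lower over a wide range of levels. AT4G00700, a C2-domain protein, read 2.36, 2.50 and 2.41 in sid2-1 at 4 °C and 6.47, 8.10 and 5.31 in the wild type, a fall of 18.4-fold (log2 difference -4.20, limma adjusted p = 0.0447; with the block, 0.127). Its difference was -3.47 when wild-type replicate 2 of the cold group was left out and -4.86 when replicate 3 was, and with values under 3 set to 3 it was -3.63 and not called (adjusted p = 0.0725). CML37, a calmodulin-like protein, read 2.42, 2.28 and 2.31 in sid2-1 and 4.11, 4.25 and 3.25 in the wild type, and it fell 2.89-fold (limma adjusted p = 0.0204; with the block, 0.0995; with values under 3 set to 3, 0.221). The C2-domain gene AT4G34150 was well above the low end on every array. It read 7.63, 7.94 and 7.91 in sid2-1 and 9.04, 8.84 and 9.07 in the wild type, a fall of 2.23-fold (limma adjusted p = 0.0130; with the block, 0.0905). AT2G26190, a calmodulin-binding protein, read 6.29, 6.87 and 6.58 in sid2-1 and 7.93, 8.48 and 8.22 in the wild type (log2 difference -1.63, limma adjusted p = 0.0342; with the block, 0.0598). Over the 33 measured calmodulin and EF-hand genes, a list written after the calls were seen, 4 fell (12.1%, against 0.602% of all probe sets) and 0 rose. For 9 of the 33 the sid2-1 values all lay below the wild-type values, against 6.09% of all probe sets, and the list's median difference was -0.06, against 0.00 over all probe sets tested.

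TIR-domain proteins, a class that in plants includes intracellular immune receptors and shorter relatives without the repeat region, gave 5 of the 63 genes. AT1G57630 read 2.85, 2.85 and 3.16 in sid2-1 at 4 °C, against 7.43, 7.69 and 6.25 in the wild type. All 6 warm arrays lay between 2.39 and 2.90, so that only the cold wild type had a raised signal. The fall was 18.0-fold (log2 difference -4.17, SE 0.33, limma adjusted p = 0.00139; with the block, 0.0599). AT2G20142 read 3.03, 3.28 and 3.11 in sid2-1 and 5.43, 6.33 and 6.13 in the wild type at 4 °C. It fell 7.08-fold and kept its call with the block (limma adjusted p = 0.000746; with the block, 0.0316). AT1G66090 read 4.02, 3.97 and 4.05 in sid2-1 and 6.37, 6.12 and 5.69 in the wild type, and it also kept its call (log2 difference -2.05, limma adjusted p = 0.000825; with the block, 0.0472).

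AT1G72900 and AT1G72940, the remaining TIR-domain genes of the 63, lie near each other on chromosome 1 with 3 protein-coding genes between them. AT1G72900 read 4.13, 5.30 and 4.67 in sid2-1 and 7.55, 7.78 and 7.06 in the wild type at 4 °C (log2 difference -2.76, limma adjusted p = 0.0120; with the block, 0.0802). AT1G72940 read 3.92, 4.37 and 3.42 in sid2-1 and 6.29, 6.75 and 6.76 in the wild type (log2 difference -2.70, limma adjusted p = 0.0204; with the block, 0.0773). AT1G72920, the only gene between them with a named probe set, was not called. It read 4.10, 3.88 and 4.45 in sid2-1 and 6.02, 6.70 and 6.36 in the wild type, without overlap (log2 difference -2.22, limma adjusted p = 0.0965). Cross-hybridization between such relatives was not tested. Of 88 measured genes of the TIR family, also listed after the calls were seen, 5 fell (5.68%, against 0.602% of all probe sets) and 0 rose. No overlap with sid2-1 below was found for 16 of the 88, against 6.09% of all probe sets, and with sid2-1 above for 0, against 4.88%. The family's median difference was -0.04, and 42 of the 88 had a mean under 3 over all arrays.

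Receptor-like kinases, which carry signals from the cell surface, were called lower in 4 cases, out of a number measured that was not counted. AT4G18250 read 2.69 on all 3 sid2-1 arrays at 4 °C and 4.55, 5.64 and 5.44 on the wild-type arrays. That value recurred on 7 of the 12 arrays, so the fold of 5.74 was taken from a recurring low value (limma adjusted p = 0.00309; with the block, 0.0599). AT5G49760, an LRR receptor kinase known in Arabidopsis as a sensor of hydrogen peroxide, read 7.49, 7.34 and 7.91 in sid2-1 and 8.53, 9.02 and 8.72 in the wild type. It fell 2.26-fold (limma adjusted p = 0.0256; with the block, 0.144), and its sid2-1 values at 4 °C were also below all 6 warm arrays, which lay between 8.51 and 8.85. AT5G25930 and AT1G66880 fell 3.45-fold and 3.15-fold (limma adjusted p = 0.0464 and 0.0431; with the block, 0.135 and 0.0773; with values under 3 set to 3, 0.0608 and 0.0561).

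Hydrolases and a protease inhibitor made up 5 of the 63 genes. SBT3.3, a subtilisin-like protease known in Arabidopsis for a role in immune priming, read 2.31, 2.32 and 2.86 in sid2-1 at 4 °C, against 7.72, 9.40 and 6.23 in the wild type. The wild-type arrays spanned more than 3 log2 units, and both warm groups lay between 2.31 and 2.34. Its log2 difference was -5.29, or 39.0-fold (SE 0.64, limma adjusted p = 0.0110; with the block, 0.0995). The size of this fall is loosely set, since the sid2-1 arrays are near the lowest value of the table. It was -4.78 with values under 3 set to 3, -4.48 when wild-type replicate 2 of the cold group was left out and -6.06 when replicate 3 was, and it was called in each of these fits. The chitinase gene CHI read 3.88, 6.03 and 5.56 in sid2-1 and 9.37, 11.12 and 8.71 in the wild type at 4 °C (log2 difference -4.58, SE 0.75, limma adjusted p = 0.0431; with the block, 0.119). Replicate 2 was the highest array of both cold groups for CHI, whose difference was -3.88 without wild-type replicate 2 and -5.09 without sid2-1 replicate 1 at 4 °C. CHI was called in 1 of 12 fits that left out 1 array. It was not called with values under 3 set to 3 (adjusted p = 0.0559), though its difference stayed at -4.58 there. Among the other members, the aspartyl protease gene AT3G51330 fell 7.45-fold, the metalloproteinase gene AT1G24140 fell 3.53-fold and the protease inhibitor gene AT1G72060 fell 3.69-fold (limma adjusted p = 0.0245, 0.0447 and 0.0206; with the block, 0.113, 0.146 and 0.0793; with values under 3 set to 3, 0.0853, 0.0706 and 0.0202).

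**Figure D2:**
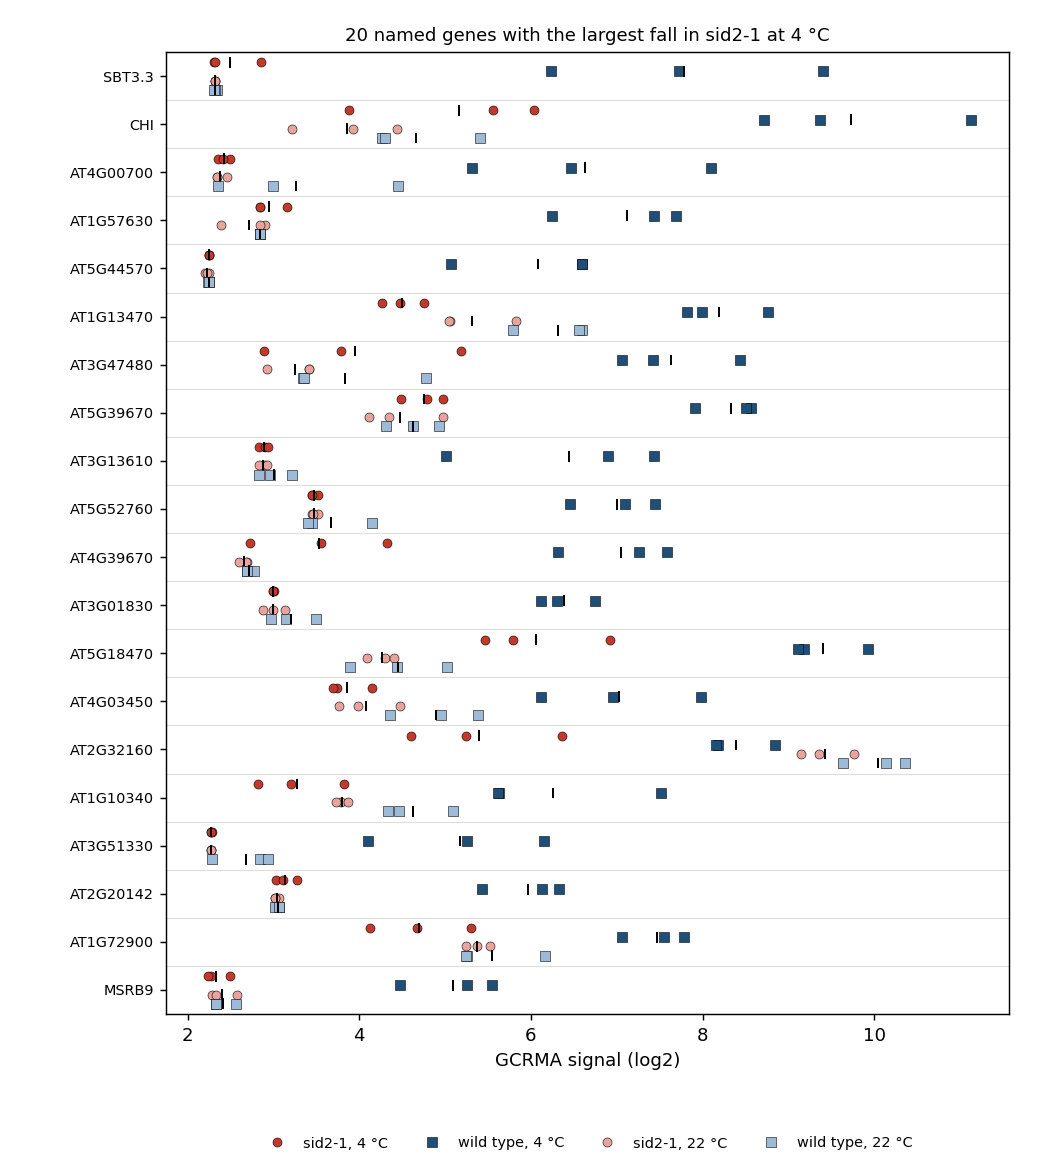
GCRMA signal (log2, x axis) of the 20 named genes with the largest fall in sid2-1 at 4 °C, with 1 point per array and a vertical line at each group mean, for sid2-1 and the wild type at 4 °C and then at 22 °C. The sid2-1 points at 4 °C lie left of the wild-type points at 4 °C in all 20 genes, and for SBT3.3 they start at 2.31, against 6.23 for the lowest wild-type array.

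Ankyrin repeat proteins of the ACD6 type and proteins with a heavy-metal-associated domain gave 2 genes each. AT4G03450, an ankyrin repeat gene, read 3.74, 4.15 and 3.70 in sid2-1 at 4 °C and 6.96, 7.98 and 6.12 in the wild type (log2 difference -3.16, limma adjusted p = 0.0210; with the block, 0.0599). AT1G10340, the other ankyrin repeat gene, read 2.82, 3.20 and 3.82 in sid2-1 and 5.63, 7.51 and 5.62 in the wild type (log2 difference -2.97, limma adjusted p = 0.0464; with the block, 0.154; with values under 3 set to 3, 0.0607). Without wild-type replicate 2 at 4 °C the difference of AT1G10340 was -2.34. The neighbouring genes AT5G52760 and AT5G52750 encode the heavy-metal-domain proteins. AT5G52760 read 3.45, 3.52 and 3.45 in sid2-1 and 7.09, 7.45 and 6.46 in the wild type, a fall of 11.5-fold that kept its call with the block (limma adjusted p = 0.000995; with the block, 0.0472). AT5G52750 read 5.01, 6.11 and 6.47 in sid2-1 and 8.29, 8.93 and 8.60 in the wild type (log2 difference -2.74, limma adjusted p = 0.0480; with the block, 0.0886; with values under 3 set to 3, 0.0625). In the whole lists, which were written after the calls were seen, 2 of 20 measured ankyrin genes and 2 of 11 measured heavy-metal-domain genes fell, against 0.602% of all probe sets, 0 rose, and both lists had a median difference of 0.00.

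Enzymes of phenolic and glycoside metabolism were called in 4 cases. AT3G13610, a feruloyl-CoA hydroxylase that leads to the coumarin scopoletin, read 2.83, 2.90 and 2.94 in sid2-1 at 4 °C and 7.43, 6.90 and 5.01 in the wild type. The fall was 11.8-fold (log2 difference -3.56, SE 0.51, limma adjusted p = 0.0207; with the block, 0.113), and the difference was -4.28 without wild-type replicate 3 at 4 °C. BGLU25, of the beta-glucosidase family, had a raised signal in both genotypes at 4 °C. It read 7.61, 7.65 and 7.73 in sid2-1 and 9.42, 9.37 and 8.65 in the wild type at 4 °C, against 5.65 to 6.52 in sid2-1 and 5.55 to 5.84 in the wild type at 22 °C (log2 difference at 4 °C -1.48, limma adjusted p = 0.0480; with the block, 0.121; with values under 3 set to 3, 0.0622). AT4G20830, a berberine bridge enzyme-like oxidase, fell 4.50-fold (limma adjusted p = 0.0200; with the block, 0.119). UGT76B1, a glycosyltransferase that conjugates salicylic acid and isoleucic acid, read 2.2 on all 3 sid2-1 arrays, the lowest value of the table, and 2.61, 3.02 and 2.81 on the wild-type arrays at 4 °C (log2 difference -0.61, limma adjusted p = 0.0150; with the block, 0.0941). With values under 3 set to 3 its difference was -0.01 and was not called (adjusted p = 0.833).

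Genes for protein handling formed a smaller group. Hsp70-2, a cytosolic chaperone, read 3.62, 4.13 and 3.93 in sid2-1 at 4 °C and 6.31, 6.72 and 5.71 in the wild type, a fall of 5.11-fold (limma adjusted p = 0.00767; with the block, 0.0599). MSRB9, a methionine sulfoxide reductase that repairs oxidized methionine, read 2.27, 2.24 and 2.49 in sid2-1 and 5.26, 5.55 and 4.48 in the wild type (log2 difference -2.76, limma adjusted p = 0.00272; with the block, 0.0625). The ubiquitin ligase gene RING1 read 6.38, 6.81 and 7.67 in sid2-1 and 9.37, 10.23 and 9.43 in the wild type (log2 difference -2.72, limma adjusted p = 0.0485; with the block, 0.142; with values under 3 set to 3, 0.0632). AT2G34250, a SEC61 alpha subunit of the channel that passes proteins into the ER, read 9.23, 9.41 and 9.41 in sid2-1 and 10.22, 10.37 and 9.83 in the wild type, a fall of 1.73-fold (limma adjusted p = 0.0491; with the block, 0.139; with values under 3 set to 3, 0.0635). It was the only call among 8 measured genes of ER protein folding and translocation. All 8 had a difference below 0, as 40.8% of all probe sets had, and they ran from -1.36 to -0.02 with a median of -0.76, against 0.00 over all probe sets. Without overlap were 5 of the 8, against 6.09% of all probe sets, and 7 of the 8 did not pass the test. The shares over all probe sets include 1283 at the lowest value on every array, which show no difference. Of the 8 genes 1 had a mean under 3 over all arrays, so these shares are an unlike comparison.

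A further 30 of the 63 genes were put in no role group, with differences from -3.84 to -0.06. The smallest of these, at AT4G09290 and AT5G44470, came to 0 with values under 3 set to 3. AT1G13470, of unknown function, read 4.75, 4.26 and 4.48 in sid2-1 at 4 °C and 7.99, 8.76 and 7.82 in the wild type, without overlap (log2 difference -3.69, SE 0.33, limma adjusted p = 0.00309; with the block, 0.0599). AT4G39670, a glycolipid transfer protein, fell 11.5-fold and AT5G18470, a lectin, fell 10.2-fold (limma adjusted p = 0.00931 and 0.0120; with the block, 0.0677 and 0.0908). AT5G44570 read 2.25 on all 3 sid2-1 arrays and 6.59, 6.60 and 5.07 on the wild-type arrays (limma adjusted p = 0.00309; with the block, 0.0599). The adjacent genes AT5G45500 and AT5G45510, which encode leucine-rich repeat proteins, fell 2.60-fold and 2.45-fold (limma adjusted p = 0.0101 and 0.0190; with the block, 0.0908 and 0.0824). AT4G29520 fell 4.71-fold and, with AT3G01830, AT5G39670, AT5G52760, AT2G20142 and AT1G66090, was one of the 6 named genes that kept their call with the block (limma adjusted p = 0.0219; with the block, 0.0284). For the other 57 the adjusted p with the block ran from 0.0526 to 0.197.

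In 11 of the 63 genes all sid2-1 values at 4 °C were below all values of both warm groups, an order that 7.93% of all probe sets had. The 63 were called for low sid2-1 values at 4 °C, which favours this order. The share over all probe sets also includes 1283 at the lowest value on every array, which cannot show it. AT2G32160, a methyltransferase, read 5.24, 4.60 and 6.36 in sid2-1 at 4 °C and 8.18, 8.84 and 8.16 in the wild type at 4 °C, against 9.14 to 9.76 in sid2-1 and 9.64 to 10.36 in the wild type at 22 °C. For this gene sid2-1 at 4 °C was the lowest group, with the cold wild type next and the warm groups above both (log2 difference at 4 °C -2.99, SE 0.43, limma adjusted p = 0.0207; with the block, 0.138). AT1G74640 had the same order, with 6.55, 6.51 and 6.62 in sid2-1 at 4 °C and 7.42, 7.92 and 7.47 in the wild type at 4 °C, against 8.07 to 8.42 in sid2-1 and 8.06 to 8.39 in the wild type at 22 °C (log2 difference at 4 °C -1.04, limma adjusted p = 0.0206; with the block, 0.147). AT5G24210, a lipase-type gene, read 6.09, 7.24 and 6.76 in sid2-1 at 4 °C and 8.87, 9.61 and 8.46 in the wild type at 4 °C, against 7.66 to 8.39 in sid2-1 and 7.80 to 8.52 in the wild type at 22 °C. Here 2 of the 3 cold wild-type arrays lay above all warm arrays and cold sid2-1 below them (log2 difference at 4 °C -2.28, limma adjusted p = 0.0483; with the block, 0.0625; with values under 3 set to 3, 0.0628). At the low end of the scale, 18 of the 63 genes had a sid2-1 mean under 3 at 4 °C, and for 15 of the 63 one exact value recurred on 4 or more arrays. Folds of those genes depend on where the background correction put the low values.

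Salicylic acid genes themselves were thinly covered by the named probe sets. Of 17 listed genes of its synthesis and conjugation 3 had a named probe set, and UGT76B1 was the only call, against 0.602% of all probe sets called lower. That call was at the lowest values of the table and was lost with values under 3 set to 3, as given above. Of 28 listed genes of its perception and signalling 3 had a named probe set. Of these 0 were called and all 3 had no overlap with sid2-1 below, against 6.09% of all probe sets. The other listed genes may lie among the probe sets with no gene here, called or not. AT5G52810, a reductase of pipecolic acid synthesis, read 4.92, 6.18 and 5.22 in sid2-1 at 4 °C and 7.88, 8.33 and 7.12 in the wild type (log2 difference -2.34, limma adjusted p = 0.0908). The glutaredoxin gene GRX480 read 3.14, 3.41 and 3.13 in sid2-1 and 3.82, 4.42 and 3.71 in the wild type (log2 difference -0.76, limma adjusted p = 0.220).

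Transcription factors with no call included WRKY53, a regulator of defence and senescence. It read 2.89, 4.91 and 3.47 in sid2-1 at 4 °C and 6.89, 8.56 and 6.78 in the wild type, with replicate 2 the highest array of both genotypes. Its log2 difference was -3.65 (SE 0.65, limma adjusted p = 0.0583), and it was called with the replicate block (adjusted p = 0.0239). STZ, a zinc finger repressor of the cold and drought responses, read 4.08, 4.23 and 5.23 in sid2-1 and 7.32, 7.50 and 7.17 in the wild type at 4 °C. The cold groups did not overlap, but the warm arrays ranged from 3.08 to 6.95, and with that spread pooled the difference of -2.82 had an SE of 1.00 (limma adjusted p = 0.392). Of the 7 measured WRKY genes 0 were called, against 0.615% of all probe sets, with a median of -0.16.

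**Figure D3:**
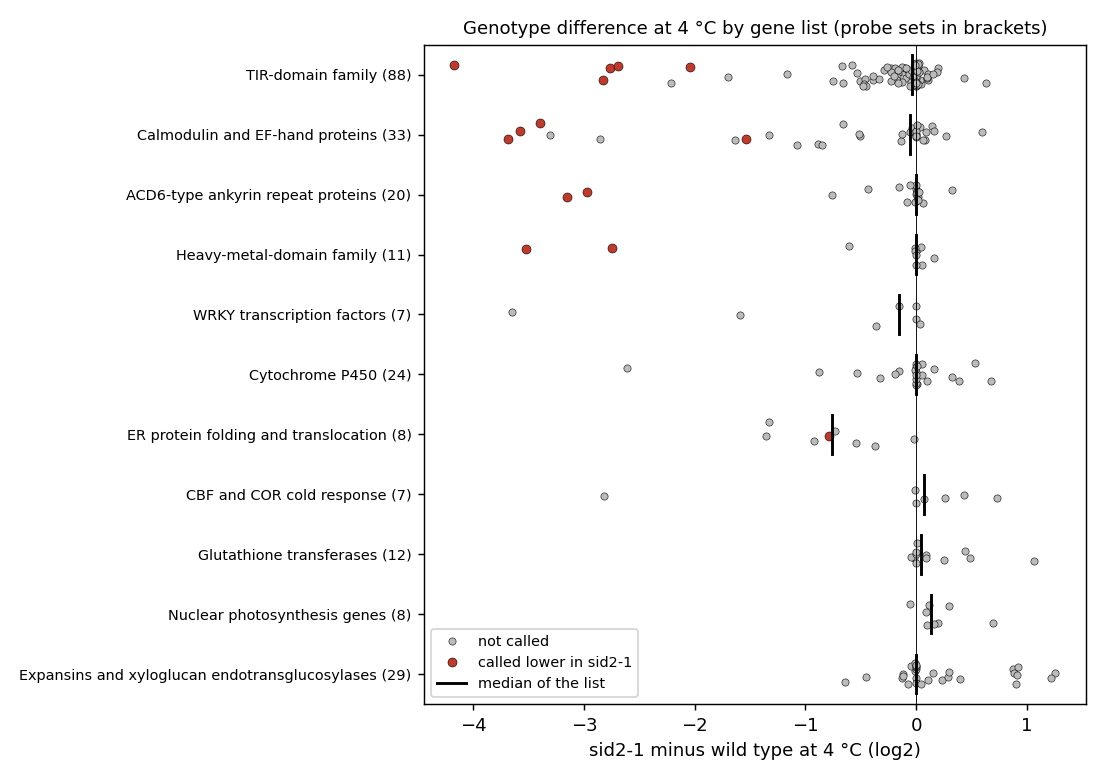
Difference between sid2-1 and the wild type at 4 °C (log2, x axis) for the probe sets of 11 gene lists, with the median of each list as a black bar and called probe sets in red. TIR-domain genes hold 5 red points out of 88 and the 7 CBF and COR genes hold 0, against 0.602% of all probe sets. Most points of most lists lie near 0.

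Named cold acclimation genes of the CBF pathway gave no call. COR15A, a chloroplast protein that protects membranes on freezing, read 12.74, 13.13 and 13.36 in sid2-1 at 4 °C and 13.22, 12.63 and 13.42 in the wild type. COR15B, its paralogue, read 12.11, 12.47 and 12.73 in sid2-1 and 12.35, 11.75 and 12.43 in the wild type. The dehydrin LTI30 read 11.61, 12.69 and 13.06 in sid2-1 and 12.49, 12.13 and 12.75 in the wild type, and the genotypes overlapped in all 3 genes. Their differences were -0.01 (SE 0.66), 0.26 (SE 0.42) and 0.00 (SE 0.45), so that the spread leaves room for differences of that size in either direction. Of 20 listed CBF and COR genes 7 were measured and 0 were called, against 0.615% of all probe sets. At that share a list of 7 would be likely to hold 0 calls. The median was 0.07, and 3 of the 7 were below 0, against 40.8% of all probe sets. The list was not uniform. It holds STZ, given above, at -2.82, while COR27 and COR47 had differences of 0.73 and 0.43 (limma adjusted p = 0.653 and 0.869).

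Higher values in sid2-1 met the threshold at 3 probe sets, none of which has a gene here. The largest of these differences was at a probe set that read 6.85, 6.87 and 6.21 in sid2-1 at 4 °C and 5.08, 4.54 and 4.02 in the wild type, 4.28-fold higher. Another of the 3 read 2.70, 2.65 and 2.95 in sid2-1 and 2.31, 2.31 and 2.30 in the wild type, close to the low end. For named genes, the largest differences above 0 without overlap are given as values only. TUB7, a beta-tubulin, read 6.78, 7.60 and 5.93 in sid2-1 and 5.86, 4.58 and 4.43 in the wild type (log2 difference 1.81, SE 0.53, limma adjusted p = 0.282). THI2.2, a thionin, had a log2 difference of 2.07, and the polygalacturonase-type genes AT1G60590 and AT1G48100 had 2.35 and 1.81 (limma adjusted p = 0.415, 0.511 and 0.547). AT4G23670 and AT3G48460 had log2 differences of 1.76 and 1.74 (limma adjusted p = 0.313 and 0.259).

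Growth, pigment and photosynthesis lists held no call, against 0.615% of all probe sets. At that share lists this short would be likely to hold 0 calls. Of 29 measured expansin and xyloglucan endotransglucosylase genes, which act on the cell wall, 3 had no overlap with sid2-1 above, against 4.88% of all probe sets, and 0 had none with sid2-1 below. EXPA4, an expansin, read 5.47, 6.46 and 6.20 in sid2-1 at 4 °C and 4.99, 4.68 and 4.81 in the wild type (log2 difference 1.22, limma adjusted p = 0.228). For the anthocyanin gene DFR the replicates of each genotype differed more than the genotypes. DFR read 8.05, 11.26 and 3.40 in sid2-1 and 8.99, 3.21 and 2.92 in the wild type, a difference of 2.53 with an SE of 2.15. UF3GT, a later gene of the same pathway, read 6.69, 10.45 and 3.26 in sid2-1 and 7.52, 3.26 and 2.71 in the wild type. The 8 measured nuclear photosynthesis genes had a median of 0.14, the 12 glutathione transferases found by name 0.05 and the 24 P450 genes found by name 0.00. Of those 24, 12 had a mean under 3 over all arrays. No overlap with sid2-1 below was found for 2 of them, against 6.09% of all probe sets, and above for 1, against 4.88%. The lowest was CYP71B23 (log2 difference -2.61, limma adjusted p = 0.102). The 3 reference genes lay between -0.15 and 0.12.

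**Figure D4:**
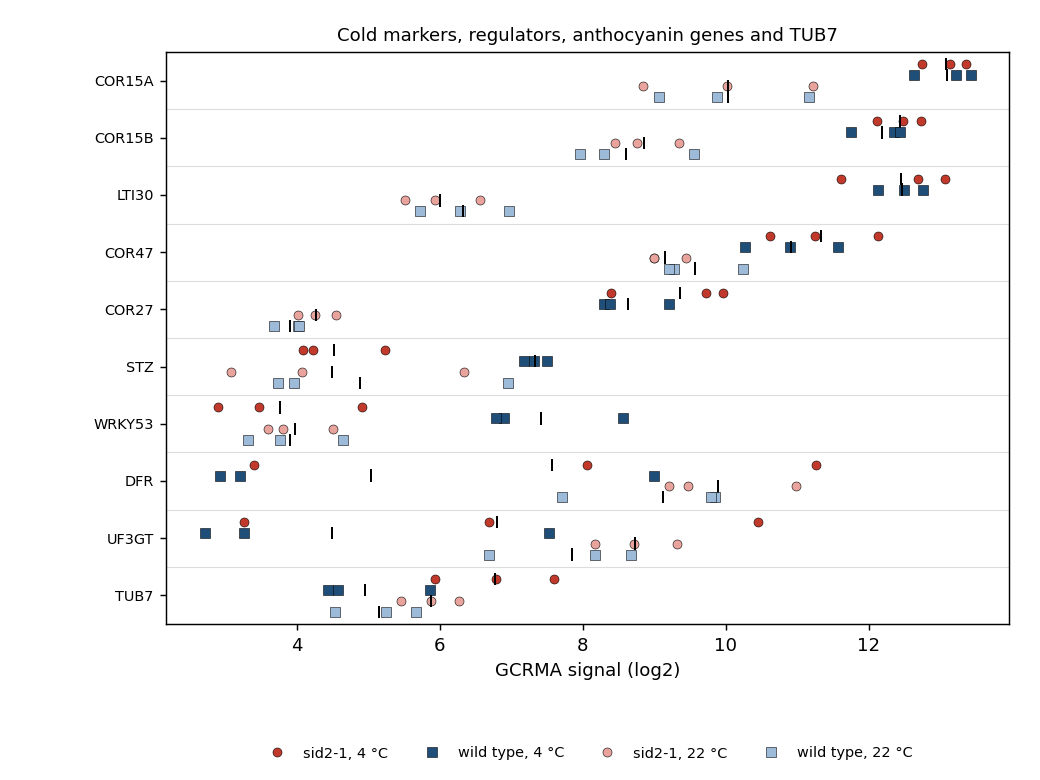
GCRMA signal (log2, x axis) of 10 named genes with 1 point per array and a vertical line at each group mean, for sid2-1 and the wild type at 4 °C and then at 22 °C. COR15A, COR15B and LTI30 overlap between the genotypes at 4 °C, STZ and WRKY53 do not, and DFR runs from 3.40 to 11.26 within sid2-1 at 4 °C.

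At 22 °C the same genotype contrast, which shares no array with that at 4 °C but shares the pooled spread, called 1 probe set of 22746, or 0.0044%. It was AT2G40530, at 2.34, 2.23 and 2.23 in sid2-1 and 2.81, 2.84 and 2.69 in the wild type, all near the low end of the scale. In the 63 named genes the median difference was -2.17 at 4 °C and -0.12 at 22 °C. The 63 were called on their values at 4 °C, so the larger median there follows in part from the call. Of the 137 probe sets, 110 had a computed difference below 0 at 22 °C, or 80.3%, and 9 had an unadjusted p under 0.05 there. Over all probe sets tested the share was 53.4%. That share counts ties that the computation left a trace below 0, since the median difference of all probe sets rounded to 0. The 80.3% can include such ties too, so these shares are not set against each other. The differences of the 63 named genes at 22 °C lay between -1.06 for RING1 and 0.45 for BGLU25.

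The test of whether the genotype difference itself differed between the temperatures called 14 probe sets, or 0.0615%, of which 8 are named genes of the 63. They are AT1G57630, AT5G39670, AT5G52760, AT3G01830, AT2G20142, MSRB9, AT1G66090 and AT5G43910, the last a pfkB-type carbohydrate kinase. For AT3G01830 the difference at 4 °C was lower than that at 22 °C by a log2 value of -3.19 (SE 0.25, limma adjusted p = 0.0135). For the remaining 55 named genes this test did not reach the threshold. With the replicate block within each temperature it called 0 probe sets, with 1401 at an unadjusted p under 0.05, so that these calls too rest on the fit without the block.

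**Figure D5:**
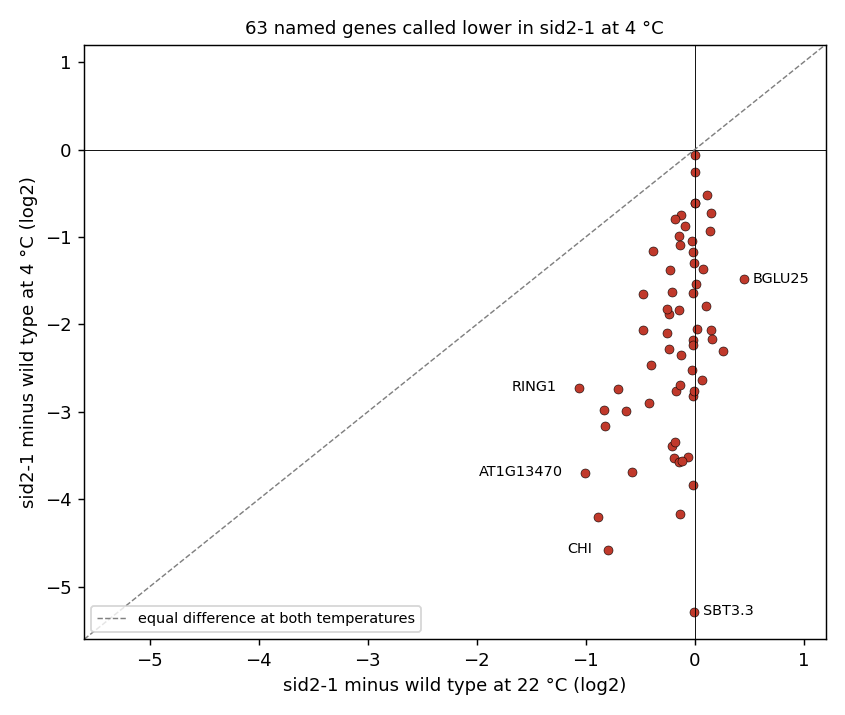
Difference between sid2-1 and the wild type at 4 °C (log2, y axis) against that at 22 °C (log2, x axis) for the 63 named genes called at 4 °C, with a dashed line where both would be equal. The points run down to -5.29 on the y axis for SBT3.3 and lie between -1.06 (RING1) and 0.45 (BGLU25) on the x axis. The genes were called on the y axis values, so the larger differences there follow in part from the call.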

How the data were processed

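Arrays of 12 samples, 3 in each of 4 groups, were analysed from the authors' deposited log2 values, made with GCRMA per the submitters' processing notes, which also name limma without versions. The arrays normalized together are not given in the sources used here. After removal of 64 controls from the 22810 probe sets, values run from 2.2 to 14.46, with 14.7% at 2.2. Genes were named through the platform table and a gene table. The number of arrays limits the precision.

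Differences were fitted with limma 3.58.1 in R 4.3.3 (a mean per group, 8 residual degrees of freedom, Benjamini-Hochberg over 22746 probe sets, calls at an adjusted p under 0.05). The script was tested on simulated data. Same-numbered replicates of the genotypes deviated together, with correlations of 0.211, 0.227 and 0.252 at 4 °C and 0.418, 0.283 and 0.467 at 22 °C. Differently numbered pairs ran from -0.357 to 0.134 at 4 °C and from -0.401 to 0.046 at 22 °C. Same-numbered pairs across the temperatures ran from -0.048 to 0.371, so the pairing at 4 °C is not sharply set. Values with the replicate number as a block are therefore printed where the call changes. Tables were made with pandas 2.3.3 and plots with matplotlib 3.10.9 (Python 3.11.15).

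The genes named were the 20 largest falls among called genes with a probe set of 1 gene and no overlap, the 6 largest uncalled differences above 0 without overlap, up to 6 called members of each gene list or up to 3 uncalled ones, and COR15A, COR15B and LTI30. AT1G13470, the members of role groups, the genes that were neighbours and those below both warm groups were also described after their values were seen. The comparison and the lists were chosen with earlier results of these data known. The lists of TIR, EF-hand, ankyrin, heavy-metal-domain and nuclear photosynthesis genes and the role groups were written after the calls were seen and support nothing by themselves. A list of UDP-glycosyltransferases missed members of that family and is not described.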

Additional observations from a re-analysis of the deposited data

Results flagged for a closer look

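The genotype difference at 4 °C and that at 22 °C differed by limma's interaction test at 14 probe sets. The difference of the genotype effects (4 °C minus 22 °C, log2) was -4.03 for AT1G57630, -3.43 for AT5G39670, -3.34 for AT5G52760, -3.19 for AT3G01830, -2.81 for AT2G20142, -2.75 for MSRB9, -2.07 for AT1G66090 and -1.84 for AT5G43910. For AT2G40530 it was 0.51, a gene near the lowest values of the table on every array. The other 5 probe sets have no gene here.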

How the results depend on the processing

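At 4 °C the 140 calls became 0 with the 6 cold arrays alone, 69 in those arrays above a mean of 4 and 1 in them with a trended and robust prior (both added after the data were seen), 27 with the replicate block within each temperature and 213 above a mean of 4 over all arrays. Leaving out each array gave 84 to 281. The remaining alternatives ran from 104 calls with values under 3 set to 3 to 171 with array weights, and the block over all arrays gave 162. At 22 °C the 1 call became 2 with the 6 warm arrays alone and 0 with either replicate block, above a mean of 4, or with the floor of 3, and leaving out each array gave 0 to 20. The 14 interaction calls became 0 with the replicate block within each temperature, 3 with the block over all arrays and 30 above a mean of 4, and leaving out each array gave 0 to 70. The cause of these changes was not tested, beyond fewer arrays or probe sets in the fits that leave some out. Of the 27 called genes named by the rule, 0 changed direction under any alternative, while 12 uncalled ones did, such as COR15A (-0.24 to 0.15) and LTI30 (-0.31 to 0.42). The called genes had no overlap at 4 °C, so their unchanged direction largely follows from the call and is no separate result.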
